A study of Mus musculus with 4 samples.

Results

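The 8 S100 genes described here, S100a8, S100a9, S100a4, S100a6, S100a10, S100a11, S100a1 and S100a13, were taken by symbol from the 27998 genes of 4 single-cell RNA-seq libraries of sorted mouse cells. They are 8 of 17 S100 genes in the files. The other 9 held between 0 and 38 UMIs (unique molecular identifiers, the counted molecules) each over all libraries, the most being in S100a3, and 3 of them, S100a14, S100g and S100z, were at 0. The study asks what the loss of Id1 and Id3, inhibitors of E protein transcription factors, does to the vessels of the bone marrow. In the groups labelled knockout, mice were Id1-/- Id3-/-; in the groups labelled control they were Id1+/+ Id3+/-, called WT in the sample titles. Both carried a CreER driven by Cdh5, an endothelial gene, and tamoxifen was injected on 5 days in a row to delete Id1. No source used here gives the age of the mice or how many were pooled in a library. Cells were gated as lineage-, CD31+, VE-cadherin+ and endomucin+, and split into Sca-1- cells, labelled sinusoidal, and Sca-1+ cells, labelled type H, the name of a bone capillary. After filtering, the 4 libraries held 553 cells (sinusoidal, labelled knockout), 351 (sinusoidal, labelled control), 1857 (type H, labelled knockout) and 806 (type H, labelled control). Each group is 1 library, so no difference below has a replicate check and none was tested. Every interval is a 95% interval that covers counting error only.

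S100 proteins are small EF-hand proteins that bind calcium, pair as dimers and then bind other proteins. Most mouse S100 genes lie together on chromosome 3. S100a8 and S100a9 form calprotectin, which fills the cytosol of neutrophils and is present in monocytes. It binds zinc and manganese, and outside the cell it acts on the receptors Tlr4 and Ager. In bone marrow both genes are switched on as granulocyte precursors mature. S100a10 is the light chain of the annexin A2 tetramer and has lost calcium binding, S100a11 binds annexin A1, S100a6 (calcyclin) binds Cacybp, and S100a4 binds non-muscle myosin. S100a1 is best known from heart and skeletal muscle, where it acts on calcium release, and S100a13 takes part in the export of growth factors that lack a signal peptide.

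Several facts of the libraries bear on every value. The endothelial label was not borne out by its markers: Cdh5 had 4, 7, 18 and 16 UMIs in the 4 libraries, in the order above, and was seen in 0.542%, 1.42%, 0.539% and 1.24% of cells, while the leukocyte gene Ptprc was seen in 61.8%, 71.5%, 39.3% and 44.5%. Id3 stood at 84.8 CPM (counts of UMIs scaled to the same total in every library or class) in the sinusoidal library labelled knockout and 54.7 CPM in the sinusoidal control library, and at 84.9 CPM and 33.0 CPM in the type H libraries labelled knockout and control, which goes against the labels. Id1 stood at 26.3 and 26.1 CPM in the sinusoidal pair and at 2.99 and 4.08 CPM in the type H pair. No source used here says whether the counted transcript ends lie in the deleted parts. Median depth per cell was 15428 UMIs in the sinusoidal library labelled knockout and 6142 in the sinusoidal control library. The type H medians were 5597 in the library labelled knockout and 6420 in the control library. At most 2 cell barcodes were shared by any pair of libraries. Cells were clustered with all S100 genes left out, and 19 of the 20 clusters were named from marker lists. The sinusoidal libraries were mainly granulocyte precursor-like cells, with 257 labelled knockout and 90 labelled control, and monocyte-like cells, with 216 and 175. The type H libraries were mainly progenitor-like cells (1443 labelled knockout, 591 labelled control) and plasma cell-like cells (167 and 109).

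S100a8 and S100a9 were among the most abundant transcripts of the data. S100a8 had 142068 UMIs in all, rank 30 of all genes, and S100a9 had 68867, rank 78. Together they made up 1.39% of the UMIs in the sinusoidal library labelled knockout and 2.52% in the sinusoidal control library, but 0.102% and 0.0839% in the type H libraries labelled knockout and control. S100a8 lies on the plus strand at chromosome 3, 90668978 to 90670035 (GRCm38, the build the submitters name as mm10), and S100a9 on the minus strand at 90692632 to 90695721, with 22596 bases between them. The windows from 250 bases before to 30 bases after the RefSeq start (GRCm38.p6) are shown for both, since the pair went together across classes and libraries, and for S100a4 and S100a13, which did not. Each is written 5′ to 3′ on the gene's strand. Capitals mark matches, on either strand, to 3 motifs. TATAAA is the core promoter element that binds the basal transcription machinery. GCAAT is an element of C/EBP sites. GAGGAA is a core of PU.1 sites. C/EBP factors and PU.1 are regulators of granulocyte and monocyte genes.

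S100a8, chr3:90668821-90669100, plus strand: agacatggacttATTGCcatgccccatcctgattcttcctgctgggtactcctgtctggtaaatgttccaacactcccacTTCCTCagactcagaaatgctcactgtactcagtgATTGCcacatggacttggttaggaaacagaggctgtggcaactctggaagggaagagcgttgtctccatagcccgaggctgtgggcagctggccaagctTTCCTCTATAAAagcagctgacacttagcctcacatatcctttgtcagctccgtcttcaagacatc

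S100a9, chr3:90695692-90695971, minus strand: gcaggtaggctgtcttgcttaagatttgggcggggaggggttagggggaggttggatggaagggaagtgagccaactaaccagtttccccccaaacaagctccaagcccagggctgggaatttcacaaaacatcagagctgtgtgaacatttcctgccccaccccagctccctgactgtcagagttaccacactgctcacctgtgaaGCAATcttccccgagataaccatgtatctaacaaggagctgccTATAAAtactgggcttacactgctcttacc

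S100a4, chr3:90603520-90603799, plus strand: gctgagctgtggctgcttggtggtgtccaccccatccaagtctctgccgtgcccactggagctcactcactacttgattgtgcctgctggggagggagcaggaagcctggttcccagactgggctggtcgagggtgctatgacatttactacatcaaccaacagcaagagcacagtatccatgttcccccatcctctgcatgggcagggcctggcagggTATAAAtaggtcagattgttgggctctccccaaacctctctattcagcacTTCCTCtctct

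S100a13, chr3:90514185-90514464, plus strand: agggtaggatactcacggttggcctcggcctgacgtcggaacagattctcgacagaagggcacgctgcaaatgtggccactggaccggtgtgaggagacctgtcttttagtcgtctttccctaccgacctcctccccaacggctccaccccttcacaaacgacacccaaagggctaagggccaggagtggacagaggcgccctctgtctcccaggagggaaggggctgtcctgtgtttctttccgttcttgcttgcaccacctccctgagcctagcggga

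The S100a8 window holds all 3 motifs: TATAAA from 30 bases before the start, GCAAT in 2 places and GAGGAA in 2 places. The S100a9 window holds GCAAT from 43 bases before the start and TATAAA from base 1, right at the annotated start. The S100a4 window holds TATAAA from 31 bases before the start and GAGGAA from base 20 after the start. No match was found in the window of S100a13, nor in those of S100a6 and S100a1, and S100a11 holds 1 GAGGAA; the reference table used here gave 7 of the 8 genes, without S100a10. Among the 32851 windows of this length in the table, 13.1% hold TATAAA, 25.0% hold GCAAT and 26.0% hold GAGGAA, so each motif alone is common, and a match is only a description of the letters.

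Nearly all of the S100a8 and S100a9 signal sat in granulocyte precursor-like cells. These cells held 97.8% of the S100a8 UMIs of the sinusoidal library labelled knockout and 96.9% of those of the sinusoidal control library, and 97.7% and 97.1% of the S100a9 UMIs. In the type H libraries the source was a handful of cells: 7 granulocyte precursor-like cells held 96% of the S100a8 UMIs in the library labelled knockout, and 2 held 95.4% in the control library. The richest cells carried much of it: 50% of all S100a8 UMIs came from 24 of 553 cells in the sinusoidal library labelled knockout and from 13 of 351 in the sinusoidal control library. S100a8 averaged 9436 CPM over all cells of the sinusoidal library labelled knockout and 16889.8 CPM in the sinusoidal control library, and 637 CPM in the type H library labelled knockout and 552 CPM in the type H control library. S100a9 averaged 4426 CPM over all cells of the sinusoidal library labelled knockout and 8280.1 CPM in the sinusoidal control library, and 383 CPM in the type H library labelled knockout and 287 CPM in the type H control library.

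**Figure D1:**
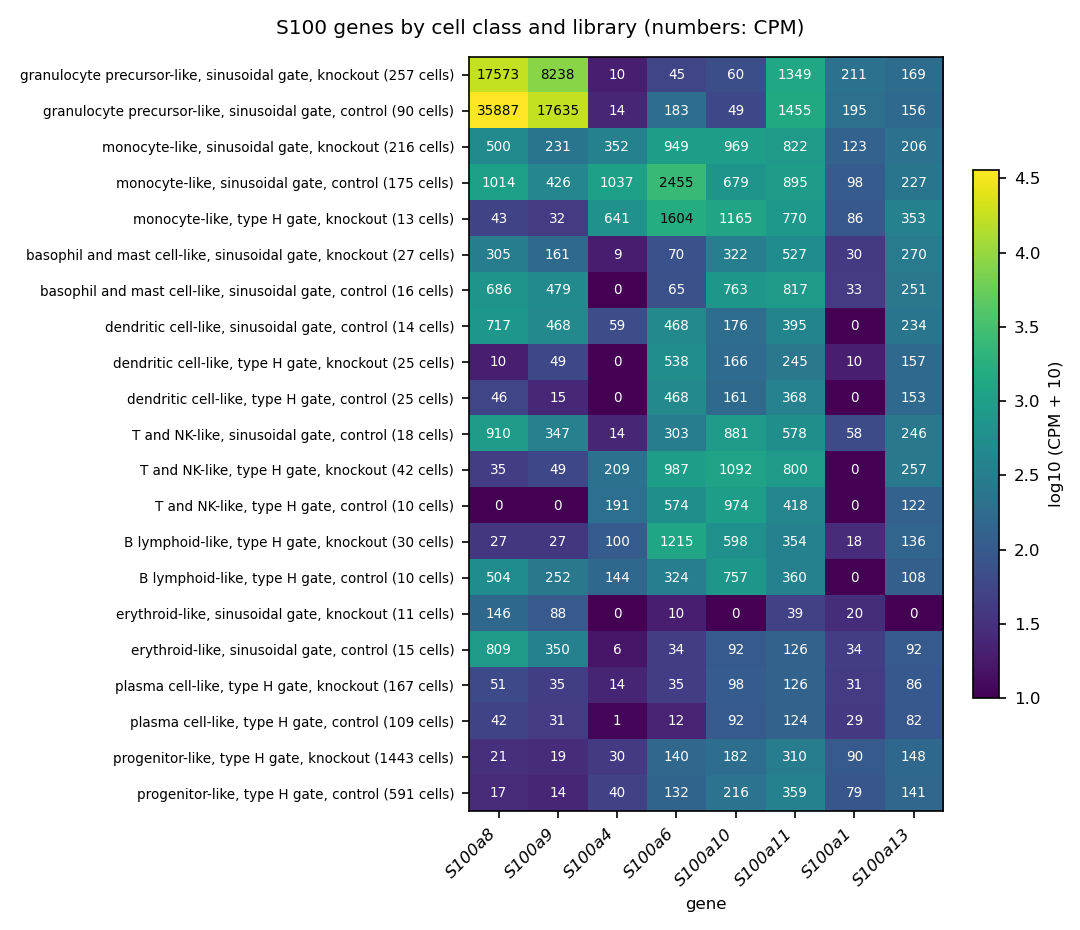
Level of the 8 S100 genes in each named cell class with at least 10 cells, as CPM of the UMIs summed over the cells of a class in a library (printed in each box; colour is log10 of CPM + 10). Rows are classes and libraries, columns are genes. S100a8 and S100a9 reach 17573 and 8238 CPM in granulocyte precursor-like cells labelled knockout and 35887 and 17635 CPM in those labelled control, S100a4 and S100a6 are highest among monocyte-like cells, and S100a13 stays between 82 and 353 CPM outside erythroid-like cells.

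Granulocyte precursor-like cells labelled knockout held less S100a8 and S100a9 per UMI than those labelled control. S100a8 stood at 17573 CPM (17448 to 17698) in the 257 cells labelled knockout and 35887 CPM (35579 to 36196) in the 90 cells labelled control, a ratio of 0.49 (0.484 to 0.495). S100a9 stood at 8238 CPM (8153 to 8324) and 17635 CPM (17419 to 17852), a ratio of 0.467 (0.46 to 0.475). Of the 8 genes, 3 were at least 1.5-fold lower in the cells labelled knockout (S100a8, S100a9 and S100a6) and 0 at least 1.5-fold higher. Over the 8943 genes with at least 20 UMIs in these cells, 9.11% were lower by that rule and 7.96% higher. The 5 other members lay within 1.5-fold. S100a11 had 1349 CPM labelled knockout and 1455 CPM labelled control, and S100a1, S100a13, S100a10 and S100a4 had ratios of 1.08, 1.09, 1.23 and 0.716, the last on 43 and 20 UMIs. The median log2 ratio of the 8 genes was -0.30, and that of all genes measured 0.02.

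The 2 sets of granulocyte precursors were not at the same stage. Of 9 genes of late (secondary and tertiary) granules and of maturing neutrophils, 9 were at least 1.5-fold lower in cells labelled knockout, with a median log2 ratio of -1.66. Ltf, which encodes lactoferrin, had 159 CPM labelled knockout and 1265 CPM labelled control, and Camp, which encodes a cathelicidin, 5802 and 9199 CPM. Of 5 early (azurophil granule) genes, 0 passed 1.5-fold in either direction, with a median log2 ratio of 0.20. Elane, neutrophil elastase, had 19715 CPM labelled knockout and 16101 CPM labelled control. Each cell was therefore placed by its late share, the share of its early and late granule UMIs that came from the late genes. S100 genes are in neither list.

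Within ranges of the late share the difference was not even. Below a late share of 0.1 (203 cells labelled knockout, 60 labelled control), S100a8 had 4518 CPM labelled knockout and 7414 CPM labelled control, a ratio of 0.609 (0.593 to 0.626). From 0.1 to 0.5 (22 and 8 cells) it had 45468 and 45451 CPM, a ratio of 1.0 (0.971 to 1.03). From 0.5 on (32 and 22 cells) it had 97475 and 174476 CPM, a ratio of 0.559 (0.551 to 0.566). The lower value of cells labelled knockout was thus seen at both ends and not in the middle range. S100a9 had ratios of 0.753 (0.71 to 0.80), 1.32 (1.26 to 1.38) and 0.529 (0.519 to 0.538) in the 3 ranges, so in the middle range it was higher in cells labelled knockout. The ranges were not matched within themselves. In the middle one the median late share was 0.322 labelled knockout and 0.192 labelled control. Under a late share of 0.01 lay 158 of the 203 cells labelled knockout and 26 of the 60 labelled control, and there S100a8 had a ratio of 0.484 (0.466 to 0.502) and S100a9 of 0.472 (0.429 to 0.52), about as low as over the whole class. From 0.01 to 0.1 (45 and 34 cells) the ratios were 1.11 (1.07 to 1.15) and 1.85 (1.72 to 2.0). Late gene UMIs were also found in cells that should lack them, as given below, and their part in the ranges under 0.1 was not tested. In the last range the median late share was 0.761 labelled knockout and 0.994 labelled control, and Elane stood at 12666 CPM labelled knockout and 3728 CPM labelled control. Within 0.05 of the limits at 0.1 and 0.5 lay 12 and 4 cells labelled knockout and 4 and 0 cells labelled control, and these ranges are not cell types.

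In the most mature cells, levels of the 2 genes overlapped. In cells with a late share of 0.98 or over, a limit chosen after the values were seen, the 5 cells labelled knockout held between 160606 and 236971 CPM of S100a8 each, with a median of 193521, and the 17 cells labelled control between 162520 and 250623 CPM, with a median of 210263. The ratio of sums was 0.895 (0.874 to 0.917). S100a9 medians were 122365 and 120668 CPM, with a ratio of 0.944 (0.915 to 0.973). Such cells made up 5 of 257 granulocyte precursor-like cells labelled knockout and 17 of 90 labelled control. At the upper end, the cell with the highest share of S100a8 and S100a9 devoted 40.1% of its UMIs to them in the library labelled knockout and 40% in the control library, and cells over 20% numbered 8 of 257 (3.11%, 1.35 to 6.04%) and 19 of 90 (21.1%, 13.2 to 31%).

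**Figure D2:**
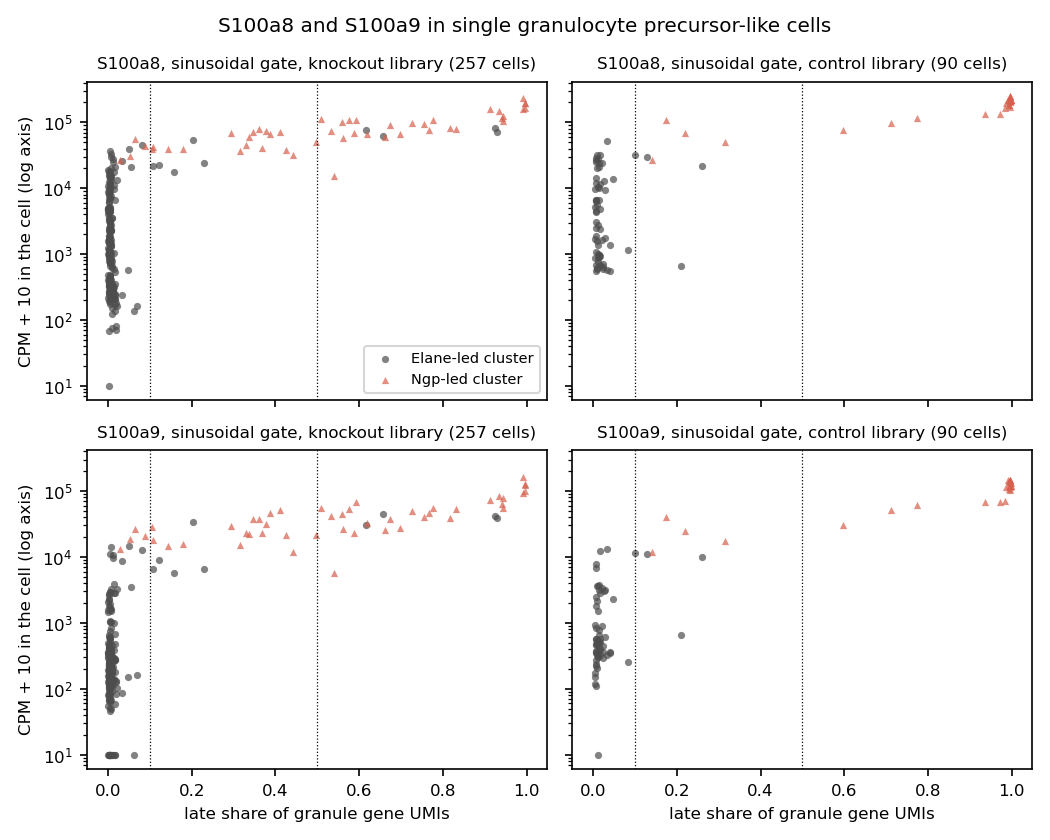
S100a8 (top) and S100a9 (bottom) in single granulocyte precursor-like cells of the sinusoidal libraries labelled knockout (left, 257 cells) and control (right, 90 cells). The x axis is the late share of granule gene UMIs, the y axis CPM + 10 in the cell on a log scale, dotted lines mark late shares of 0.1 and 0.5, and symbols mark the Elane-led and the Ngp-led cluster. Both genes climb along the late share, cells labelled knockout spread over the range between 0.1 and 0.98, and 5 cells labelled knockout and 17 labelled control lie at 0.98 or over.

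The S100a8 to S100a9 ratio was not the same along the late share. The number of S100a8 UMIs per S100a9 UMI was 6.65 (6.3 to 7.03) below a late share of 0.01 in cells labelled knockout and 6.5 (5.96 to 7.09) in cells labelled control. At 0.8 or over it was 1.71 (1.68 to 1.75) and 1.72 (1.69 to 1.75), so the ratio was several-fold lower in the most mature cells of both libraries. In 2 of the 3 ranges in between, the intervals of the libraries lay apart. From 0.01 to 0.1 the ratio was 2.66 (2.53 to 2.79) in the 45 cells labelled knockout and 4.44 (4.14 to 4.77) in the 34 labelled control. From 0.1 to 0.5 it was 1.99 (1.94 to 2.04) and 2.63 (2.5 to 2.76). From 0.5 to 0.8, with 18 and 3 cells, it did not differ beyond counting error, at 2.04 (1.99 to 2.09) and 2.01 (1.91 to 2.11). These 5 ranges were chosen after the values were seen. Erythroid-like cells, which should lack late granule genes, held Ngp at 58.6 CPM labelled knockout and 166 CPM labelled control. Camp stood at 107 and 224 CPM there. In the Elane-led cluster the median late share was 0.00518 labelled knockout and 0.0127 labelled control, on either side of the 0.01 limit. The part of such late gene UMIs in the ranges under 0.1 was not tested. The spread between cells was not tested, and few cells carry each sum: in the Elane-led cluster 6 of 208 cells labelled knockout and 6 of 64 labelled control held 50% of the S100a9 UMIs.

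**Figure D3:**
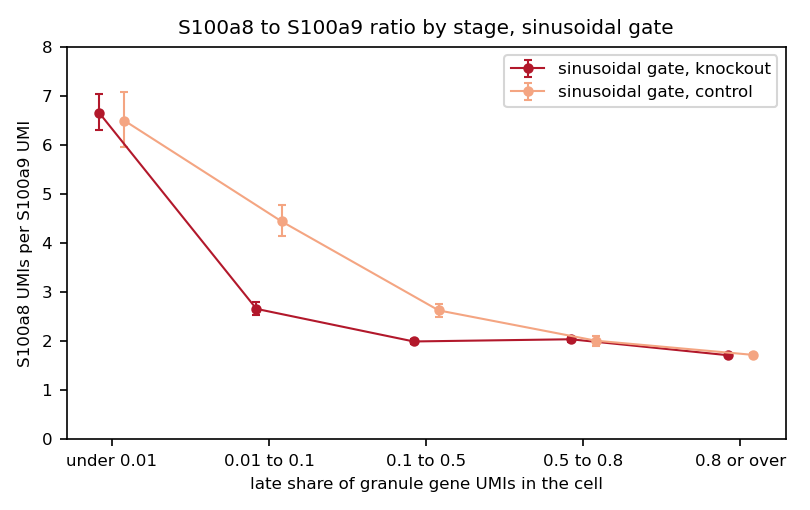
S100a8 UMIs per S100a9 UMI (y axis) in sinusoidal-gate granulocyte precursor-like cells, in 5 ranges of the late share of granule gene UMIs (x axis), for the libraries labelled knockout and control; bars are 95% intervals from counting error. Both lines run from 6.65 and 6.5 in the earliest range to 1.71 and 1.72 in the latest, and lie apart at 0.01 to 0.1 and 0.1 to 0.5.

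By cluster, the Elane-led cells (208 labelled knockout, 64 labelled control) held 5662 CPM of S100a8 labelled knockout and 8276 CPM labelled control, a ratio of 0.684 (0.668 to 0.701), and the S100a9 ratio was 0.92 (0.875 to 0.967); both lie within 1.5-fold. Of the 8 genes only S100a4 passed there, with 41 UMIs labelled knockout and 20 labelled control and a ratio of 0.656 (0.375 to 1.18), whose interval includes 1, where 9.85% of all genes measured were lower and 7.54% higher. The S100a8 level varied widely among these cells: the median was 1374 CPM labelled knockout and 3735 CPM labelled control, and the highest cells reached 80827 and 52706 CPM. The lowest cell had 0 CPM labelled knockout and 535 CPM labelled control; the level in erythroid-like cells, given below, differed the same way. The Ngp-led cells (49 and 26) held 77303 CPM of S100a8 labelled knockout and 146708 CPM labelled control, a ratio of 0.527 (0.52 to 0.534). S100a9 had 41169.5 and 81122 CPM, a ratio of 0.508 (0.499 to 0.516). Their median late share was 0.559 labelled knockout and 0.992 labelled control, and all 5 early granule genes were at least 1.5-fold higher and 8 of 9 late genes lower in the cells labelled knockout. In this cluster 10.6% of all genes measured were lower by that rule and 29.4% higher.

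S100a6, whose product binds Cacybp, differed most in the Ngp-led cells, with 18 CPM (13 UMIs) labelled knockout and 678 CPM (196 UMIs) labelled control, a ratio of 0.0265 (0.0139 to 0.0464). The signal came from few cells: 3 of the 26 cells labelled control held 50% of it, 8 had 5 or more UMIs and 1 had 52. Of the 49 cells labelled knockout, 0 had 5 or more, and the highest had 2. Without the highest cell of each, the levels were 15.4 CPM labelled knockout and 515 CPM labelled control. At a late share of 0.98 or over S100a6 had 3 UMIs in the 5 cells labelled knockout and 193 in the 17 labelled control, or 61.4 and 1295 CPM. S100a4, which was high in monocyte-like cells, had 2 UMIs in the 49 cells labelled knockout and 0 in the 26 labelled control. In the Elane-led cells S100a6 was low in both libraries, at 50.7 and 59.4 CPM. S100a1 went the other way in the Ngp-led cells, at 282 CPM labelled knockout and 173 CPM labelled control, a ratio of 1.63 (1.19 to 2.27).

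S100a8 and S100a9 UMIs were also found in classes that should lack them, and more so in the sinusoidal control library. Erythroid-like cells, which should lack both transcripts, held 146 CPM (81.9 to 241) of S100a8 in the sinusoidal library labelled knockout (11 cells, median 1 UMI per cell) and 809 CPM (681 to 954) in the sinusoidal control library (15 cells, median 6). The highest of the cells held 4 of the 15 UMIs labelled knockout and 65 of the 141 labelled control, and without it the levels were 115 and 527 CPM. The library labelled knockout had 305 CPM in basophil and mast cell-like cells. The control library had 910.4 CPM in T and NK-like cells, 717 CPM in dendritic cell-like cells and 686 CPM in basophil and mast cell-like cells, which without the highest cell of each class became 561, 579 and 642 CPM. Its classes of under 10 cells varied more. Its 8 B lymphoid-like cells had 3442 CPM, with 84 of the 109 UMIs in 1 cell. Its 2 plasma cell-like cells had 2185 CPM and its 1 progenitor-like cell 169 CPM. S100a8 UMIs per S100a9 UMI were 1.67 (0.683 to 4.32) in erythroid-like cells labelled knockout and 2.31 (1.7 to 3.17) in those labelled control, against 2.13 (2.11 to 2.16) and 2.03 (2.0 to 2.07) in the granulocyte precursor-like cells of the same libraries. The intervals overlap within each library. Free RNA and doublets can both give such UMIs, and their part was not tested. In the type H gate these levels were lower in most classes, and T and NK-like cells of the control library had 0 UMIs of both genes in 10 cells. B lymphoid-like cells of the type H control library were an exception, at 504 CPM (276 to 846) of S100a8 in 10 cells. Their highest cell held 13 of the 14 UMIs. S100a8 had 51.2 CPM (39.7 to 64.9) in plasma cell-like cells labelled knockout and 42.5 CPM (29.4 to 59.4) in those labelled control, and 20.7 CPM (17.6 to 24.1) and 17.5 CPM (13.5 to 22.2) in progenitor-like cells. With each cell thinned to 2000 UMIs, S100a8 was seen in 3.5% (48 of 1371 cells) of progenitor-like cells labelled knockout and 2.92% (17 of 583 cells) of those labelled control, below the 8.38% (14 of 167 cells) and 8.41% (9 of 107 cells) of plasma cell-like cells, a class that should lack it. Unthinned, the shares were 10.5% and 8.29% of progenitor-like cells, at median depths of 5338 and 6309 UMIs, and 31.1% and 24.8% of plasma cell-like cells, at 7484 and 7094 UMIs. The S100a8 share of progenitor-like cells is at or below that of plasma cell-like cells and is not read as expression. Their ratio of S100a8 to S100a9, 1.1 (0.876 to 1.39) labelled knockout and 1.22 (0.84 to 1.77) labelled control, was lower than over the whole libraries, 1.66 (1.6 to 1.73) and 1.92 (1.81 to 2.04), with intervals that lie apart, and the source of these UMIs was not tested.

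**Figure D4:**
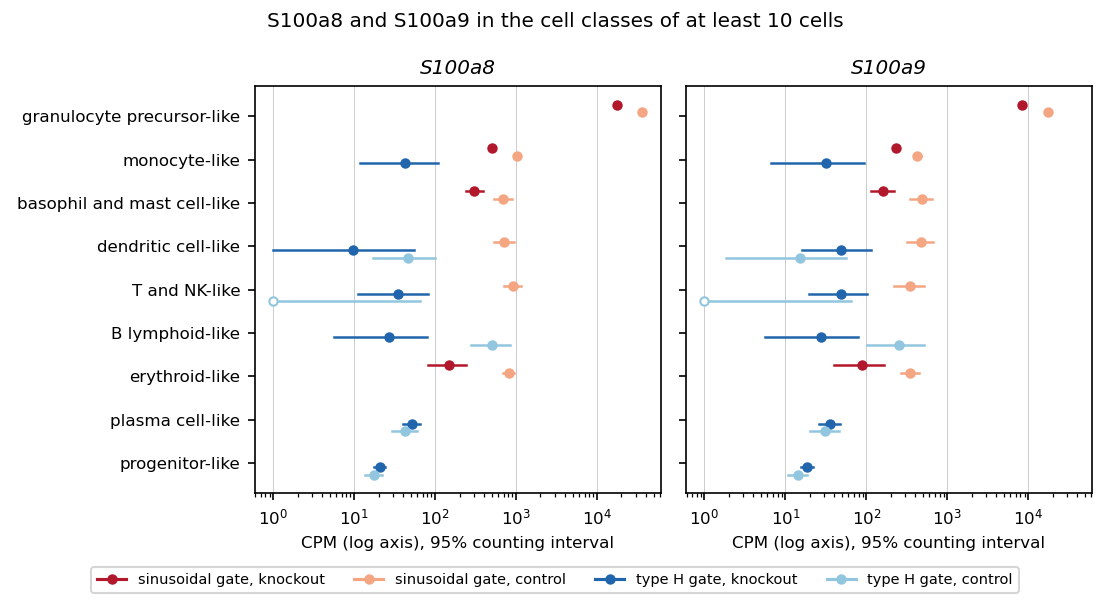
S100a8 (left) and S100a9 (right) CPM, on a log axis, in each named cell class of at least 10 cells; colours are the 4 libraries, points the CPM of summed UMIs and lines 95% counting intervals, with values of 0 drawn as open points at 1 CPM. Classes other than granulocyte precursor-like cells lie between 686 and 1014 CPM of S100a8 in the sinusoidal control library, and type H progenitor-like cells at 20.7 and 17.5 CPM.

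In monocyte-like cells, 4 of the 8 genes were at least 1.5-fold lower in cells labelled knockout (S100a8, S100a9, S100a4 and S100a6) and 0 higher, where 22.2% of the 8707 genes measured were lower and 22.4% higher. S100a4 had 352 CPM (331 to 374) labelled knockout and 1037 CPM (976 to 1100.1) labelled control, a ratio of 0.339 (0.312 to 0.37). S100a6 had 949 CPM (914 to 984) and 2455 CPM (2361 to 2551), a ratio of 0.386 (0.366 to 0.408). S100a10 was the one member that leaned upward, at 969 CPM (934 to 1004) labelled knockout and 679 CPM (630.2 to 731) labelled control, a ratio of 1.43 (1.31 to 1.55), which stays under 1.5-fold. The ratios of S100a11, S100a1 and S100a13 were 0.918, 1.26 and 0.908. The class has a different make-up in the 2 libraries. Of the 216 cells labelled knockout, 157 were in the F13a1-led cluster, 54 in the Fn1-led cluster and 5 in the Ear2-led cluster. Of the 175 labelled control, 20, 114 and 41 were. Depth also differed, with medians of 15163 and 5436 UMIs per cell, and all 5 early granule genes were higher in the cells labelled knockout.

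Within the Fn1-led cluster, whose leading genes include Fn1, Lyz2 and Ccr2, the ratios of S100a4 and S100a6 lay close to 1. S100a4 had 1293 CPM in the 54 cells labelled knockout and 1317 CPM in the 114 labelled control, a ratio of 0.982 (0.872 to 1.1). S100a6 had 3301 and 3108 CPM, a ratio of 1.06 (0.986 to 1.14). The median depths there were close, at 5909.5 and 5773.5 UMIs per cell. S100a10 and S100a11 had ratios of 1.29 (1.1 to 1.51) and 1.41 (1.25 to 1.6), both upward and under 1.5-fold. Of the 8 genes 2 were at least 1.5-fold lower there, S100a8 and S100a9, and 0 higher, where 12.4% of all genes measured were lower and 9.18% higher. In the F13a1-led cluster, which also carried early granule genes, S100a4 had 239.6 CPM in 157 cells labelled knockout and 480.3 CPM in 20 labelled control, a ratio of 0.499 (0.413 to 0.606), and S100a6 671 and 1445 CPM, a ratio of 0.464 (0.416 to 0.519). In that cluster 4 of 5 early granule genes were at least 1.5-fold higher and 6 of 6 measured late genes lower in the cells labelled knockout, and 4 of 8 S100 genes were lower, where 21.6% of all genes measured were lower by that rule and 14% higher. The part of cell make-up in the S100a4 and S100a6 difference was not tested beyond these values.

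**Figure D5:**
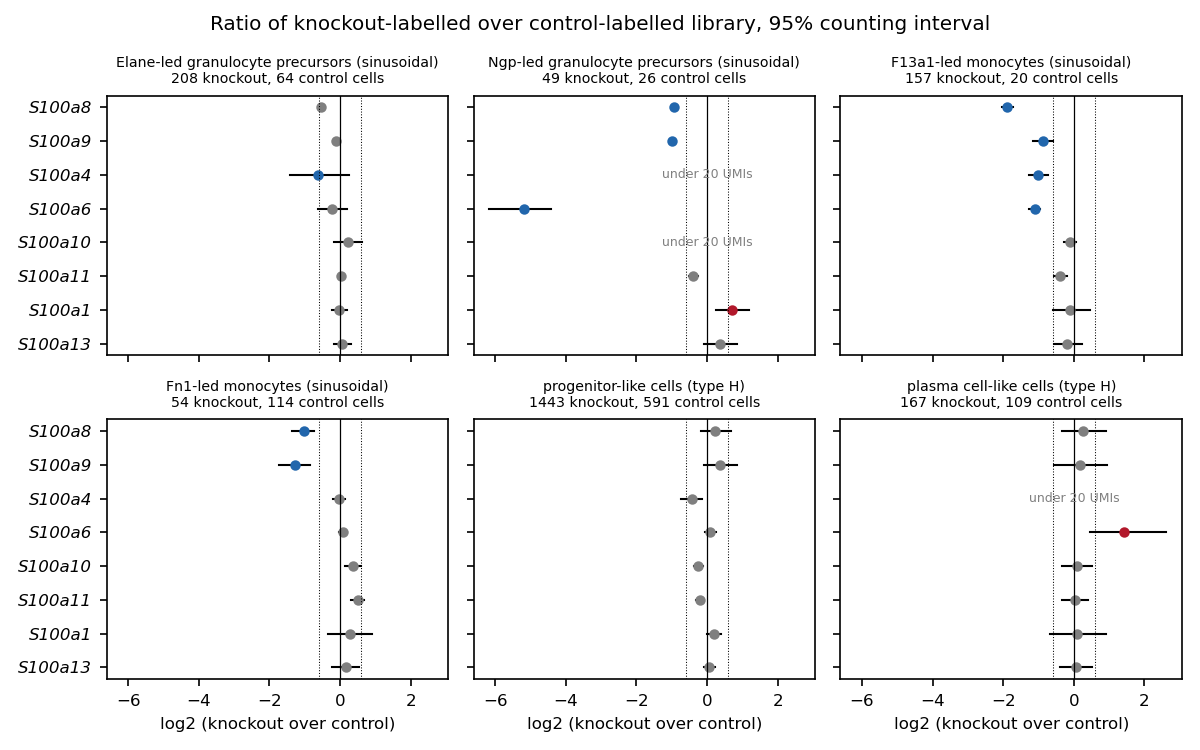
Log2 ratio of the library labelled knockout over the library labelled control (x axis) for the 8 genes (y axis) in 4 clusters of the sinusoidal gate and 2 classes of the type H gate; lines are 95% counting intervals, dotted lines mark 1.5-fold, and blue and red points lie past it in the lower and higher direction. S100a6 in Ngp-led cells is farthest from 0, at -5.19, S100a4 and S100a6 lie at -0.03 and 0.09 in Fn1-led monocytes, and no gene passes 1.5-fold in progenitor-like cells.

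S100a8 and S100a9 were low in monocyte-like cells, and in the control library their mean per cell was below that of erythroid-like cells. S100a8 stood at 499.9 CPM (475 to 526) labelled knockout and 1014 CPM (954 to 1077) labelled control, a ratio of 0.493 (0.456 to 0.534), and S100a9 had a ratio of 0.543 (0.481 to 0.612). Per cell this was a mean of 7.10 S100a8 UMIs labelled knockout, against 1.36 in erythroid-like cells of that library, and 6.09 labelled control, against 9.40 in erythroid-like cells. When the erythroid mean was taken off each cell, 404 CPM were left labelled knockout and the control value fell below 0. A step added after the values were seen left out the highest erythroid-like cell of each library. It left 422 CPM labelled knockout and 110.3 CPM labelled control. Either way the cells labelled knockout came out higher, the reverse of the direction before subtraction. The sign of the control value rests on 1 erythroid-like cell of the control library. For S100a9, 174 CPM were left labelled knockout and -251 CPM labelled control, and without the highest erythroid-like cell 189 and -73.2 CPM. The Fn1-led cells held 345 CPM labelled knockout and 709 CPM labelled control, set against 305 and 686 CPM in basophil and mast cell-like cells. In the F13a1-led cells the sum rested on single cells: the highest held 408 of 1415 UMIs labelled knockout and 240 of 522 labelled control, and without them the levels were 371 and 1120.1 CPM.

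S100a4 and S100a6 marked particular classes. In the sinusoidal gate, 95.2% of the S100a4 UMIs labelled knockout and 95.9% of those labelled control lay in monocyte-like cells. The S100a6 shares there were 92.2% and 87.7%, and the S100a10 shares 86.2% and 70%. In the type H gate, with few monocyte-like cells, these held 15.3% and 15.5% of the S100a4 UMIs. Progenitor-like cells held 58.5% labelled knockout and 70.8% labelled control, so the shares depend on the cells in each gate. S100a4 averaged 137 CPM over all cells of the sinusoidal library labelled knockout and 358 CPM in the sinusoidal control library, and 35.7 CPM in the type H library labelled knockout and 38.8 CPM in the type H control library. Within the monocyte-like cells it followed the cluster, at 1293 and 1317 CPM in Fn1-led cells, 239.6 and 480.3 CPM in F13a1-led cells and 680.2 CPM in the 41 Ear2-led cells labelled control. In the type H gate monocyte-like cells were again highest, at 641 CPM (489 to 826) in 13 cells labelled knockout and 786 CPM (544 to 1098) in 6 labelled control. Of the latter, 1 cell held 24 of the 34 UMIs. T and NK-like cells followed, at 209 CPM (141 to 298) labelled knockout and 191 CPM (95.5 to 342) labelled control. The same class had 14.5 CPM (0.366 to 80.5) in the sinusoidal control library, on 1 UMI in 18 cells. Next in the type H gate were B lymphoid-like cells at 99.7 CPM (49.8 to 178) and 144 CPM (39.3 to 369), whose intervals overlap those of T and NK-like cells. Only 4 of these 30 cells labelled knockout and 1 of the 10 labelled control had a UMI. Progenitor-like cells stood at 29.9 CPM (26.1 to 34) and 40.4 CPM (34.3 to 47.3). Dendritic cell-like cells had 0 UMIs in 25 cells of each library. Progenitor-like cells lay above the plasma cell-like cells, at 13.5 and 1.25 CPM. Thinned to 2000 UMIs, S100a4 was seen in 5.4% (74 of 1371 cells) of progenitor-like cells labelled knockout and 4.8% (28 of 583 cells) of those labelled control, and in 1.2% (2 of 167 cells) and 0% (0 of 107 cells) of plasma cell-like cells. On the GRCm38 annotation S100a4 spans chromosome 3, 90603771 to 90606045.

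S100a6 was broader than S100a4. S100a6 averaged 381 CPM over all cells of the sinusoidal library labelled knockout and 926 CPM in the sinusoidal control library, and 157 CPM in the type H library labelled knockout and 129.6 CPM in the type H control library. Apart from monocyte-like cells it was high in type H B lymphoid-like cells, at 1215 CPM (1018 to 1439) labelled knockout and 324 CPM (148 to 616) labelled control (30 and 10 cells, of which 12 and 3 had a UMI and 1 labelled knockout held 44 of the 134), in T and NK-like cells, at 987 CPM (832 to 1164) and 574 CPM (395 to 806), and in dendritic cell-like cells, at 538 CPM (405 to 700.4) and 468 CPM (358 to 601). The last show S100a6 without S100a4. Progenitor-like cells had 139.8 CPM (132 to 148) and 132 CPM (120.3 to 144), and sinusoidal granulocyte precursor-like cells 45.3 CPM (39.2 to 52) labelled knockout and 183 CPM (161 to 206) labelled control. B lymphoid-like and T and NK-like cells had fewer than 20 cells in the control library, and their ratios were not called. Of the larger type H classes, progenitor-like and plasma cell-like cells, plasma cell-like cells were the one in which a member passed 1.5-fold: S100a6 had 34.6 CPM (25.3 to 46.2) labelled knockout and 12.5 CPM (5.99 to 23) labelled control, a ratio of 2.77 (1.38 to 6.16), on 46 and 10 UMIs. Of the 6803 genes measured there, 17.3% were higher and 5.45% lower by that rule. S100a4 had 18 UMIs labelled knockout and 1 labelled control there, under the minimum of 20.

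S100a10, the annexin A2 light chain, was high in monocyte-like, T and NK-like and B lymphoid-like cells, and in basophil and mast cell-like cells of 1 library. Relative to the average over all cells, basophil and mast cell-like cells stood at 238% in the sinusoidal control library (16 cells). In the sinusoidal library labelled knockout they stood at 77.5% (27 cells). Monocyte-like cells stood at 212% and 233% in the same order. S100a10 averaged 416 CPM over all cells of the sinusoidal library labelled knockout and 321 CPM in the sinusoidal control library, and 202 CPM in the type H library labelled knockout and 220.1 CPM in the type H control library. In the type H gate monocyte-like cells had 1165 CPM (957 to 1406) labelled knockout and 1017 CPM (739 to 1365) labelled control, on 13 and 6 cells, and T and NK-like cells, whose intervals overlap with these, 1092 CPM (928 to 1276) labelled knockout and 974 CPM (736 to 1265) labelled control, with B lymphoid-like cells next at 598 CPM (463 to 761) and 757 CPM (468 to 1157). Progenitor-like cells had 182 CPM (172 to 191) and 216 CPM (201 to 231), and plasma cell-like cells 97.8 CPM (81.7 to 116) and 92.5 CPM (72.6 to 116). In granulocyte precursor-like cells it was low, at 60.4 CPM (53.3 to 68.2) and 49 CPM (38.2 to 61.8), and the Fn1-led cluster held 794 and 617 CPM. S100a10 and its partner Anxa2 did not keep one proportion across classes. In monocyte-like cells Anxa2 had 484 CPM labelled knockout and 831 CPM labelled control, a ratio of 0.582 (0.535 to 0.633), against 1.43 for S100a10. In progenitor-like cells Anxa2 had 23 and 24.5 CPM.

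S100a11, the annexin A1 partner, was found in every class; a processed pseudogene of it is annotated elsewhere in the genome, and no source used here says how reads shared with it were counted. S100a11 averaged 1042 CPM over all cells of the sinusoidal library labelled knockout and 1033 CPM in the sinusoidal control library, and 297 CPM in the type H library labelled knockout and 337 CPM in the type H control library. Granulocyte precursor-like cells were highest, at 1349 CPM (1315 to 1384) labelled knockout and 1455 CPM (1393 to 1518) labelled control, then monocyte-like cells at 822 CPM (790.02 to 855) and 895 CPM (839 to 954). Progenitor-like cells had 310.4 CPM (298 to 323) and 359 CPM (340.1 to 378), and plasma cell-like cells 126 CPM (107 to 146) and 124 CPM (101 to 151). Anxa1 had a much larger difference than S100a11 in granulocyte precursor-like cells, at 260.03 CPM labelled knockout and 622 CPM labelled control, a ratio of 0.418 (0.383 to 0.457), against 0.927 (0.882 to 0.975) for S100a11. In the Ngp-led cells Anxa1 had 709 and 2261 CPM. S100a11 and S100a10 are neighbours, at chromosome 3, 93520488 to 93526287 and 93555080 to 93564643, apart from the other 6 genes by 2824766 bases counted from S100a9. Their levels did not follow each other across classes (Pearson r = 0.181 over 13 class and library points).

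S100a1 and S100a13 stand head to head, S100a1 on the minus strand at chromosome 3, 90511034 to 90514392, and S100a13 on the plus strand at 90514435 to 90524581, with 42 bases between them, so that their 300-base promoter windows share 204 bases. Their levels were unlike. S100a1 averaged 162 CPM over all cells of the sinusoidal library labelled knockout and 134 CPM in the sinusoidal control library, and 78.3 CPM in the type H library labelled knockout and 67.6 CPM in the type H control library. S100a13 averaged 178 CPM over all cells of the sinusoidal library labelled knockout and 179 CPM in the sinusoidal control library, and 145 CPM in the type H library labelled knockout and 136 CPM in the type H control library. S100a1 was highest in granulocyte precursor-like cells, at 211 CPM (198 to 225) labelled knockout and 195 CPM (173 to 219) labelled control. It had 90.4 CPM (83.8 to 97.4) and 78.8 CPM (70.2 to 88.2) in progenitor-like cells, and 0 UMIs in T and NK-like cells of both type H libraries (42 cells labelled knockout and 10 labelled control), where S100a13 had 257 and 122 CPM. S100a13 was even, with 169 CPM (157 to 182) and 156 CPM (136 to 178) in granulocyte precursor-like cells, 206 CPM (191 to 223) and 227 CPM (199 to 258) in monocyte-like cells and 148 CPM (139.8 to 157) and 141 CPM (129.8 to 154) in progenitor-like cells. Erythroid-like and plasma cell-like cells were lowest. Over 13 class and library points the 2 had a Pearson r of 0.007, against 0.98 for S100a8 and S100a9, which lie 22596 bases apart. Nearly all UMIs of the latter pair lay in granulocyte precursor-like cells, and the source of those at the other points was not tested.

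Among type H progenitor-like cells, with 1443 cells labelled knockout and 591 labelled control, 0 of 8 genes passed 1.5-fold in either direction, where 4.95% of the 11404 genes measured were higher and 3.13% lower. The intervals were narrow for the abundant members. S100a11 had a ratio of 0.865 (0.809 to 0.925), S100a10 of 0.841 (0.771 to 0.918), S100a6 of 1.06 (0.955 to 1.18), S100a13 of 1.05 (0.946 to 1.16) and S100a1 of 1.15 (1.0 to 1.32). S100a4 had 29.9 CPM labelled knockout and 40.4 CPM labelled control, a ratio of 0.739 (0.60 to 0.911), and S100a8 and S100a9, seen in no larger a share of cells than in plasma cell-like cells, ratios of 1.18 (0.882 to 1.6) and 1.3 (0.949 to 1.81). The clusters of this class differed in size between libraries. The largest held 375 cells labelled knockout and 59 labelled control, at median depths of 2933 and 5564 UMIs. In clusters with at least 20 UMIs, S100a8 ratios ran from 0.454 (0.253 to 0.807) to 3.1 (0.97 to 15.8), the latter on 32 and 3 UMIs. S100a1 had 1.59 (1.1 to 2.39) in the cluster of 263 and 70 cells and stayed within 1.5-fold in the others. Over all cells of the type H gate 0 of 8 passed, with 5.33% of all genes higher and 3.35% lower. Over all cells of the sinusoidal gate 4 of 8 were lower, with 16.8% of all genes lower and 8.43% higher, and the share of granulocyte and monocyte stages differs there as described.

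A list of 15 genes of S100 partners and receptors, chosen with earlier results of these data known, was set beside the family. In granulocyte precursor-like cells 13 were measured, and 4 were at least 1.5-fold lower in cells labelled knockout: Anxa1, Anxa11, Ahnak and Cybb, the last encoding the oxidase subunit to which calprotectin delivers arachidonic acid. None was higher (0 of 13). Over all genes measured there 9.11% were lower and 7.96% higher. In monocyte-like cells 14 were measured, with 8 lower and 1 higher, Cacybp, the S100a6 binding protein, at 183 CPM labelled knockout and 101 CPM labelled control, where 22.2% of all genes were lower and 22.4% higher. In the Fn1-led cluster alone 0 of 12 passed either way, where 12.4% of all genes were lower and 9.18% higher. In progenitor-like cells 12 were measured, and 1 was higher, Anxa11, at 56.5 and 33.7 CPM, where 4.95% of all genes were higher and 3.13% lower. The calprotectin receptors Tlr4 and Ager were scarce: Tlr4 had 9.42 and 7.58 CPM in granulocyte precursor-like cells labelled knockout and control, and Ager 3 UMIs and 1 UMI. Bsg, also on the list, was not scarce there, at 318 CPM labelled knockout and 312 CPM labelled control.

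The genes whose levels were most like each member's were ranked by Pearson r of log2(CPM + 10) over the 13 class and library points, with at least 200 UMIs; these points share libraries and depth, and r is given as a description. S100a8 was most like Ngp (0.983), Trem3 (0.978) and Cldn15 (0.974), and S100a9 most like Camp (0.994), Ngp (0.986) and Cldn15 (0.975). Ngp and Camp encode late granule proteins. S100a4 was most like Arhgap26 (0.964), Susd3 (0.914) and Tlr2 (0.897), and S100a6 most like Myo1g (0.942), Ehbp1l1 (0.938) and Gnai2 (0.914). S100a10 was most like Wipf1 (0.896), Tmsb10 (0.896) and Esyt1 (0.893). S100a11 was most like Tomm5 (0.958), Snrpg (0.944) and Gm8186 (0.937), S100a1 most like Daglb (0.971), Htra2 (0.938) and Zak (0.929), and S100a13 most like Cbfb (0.943), Prkag1 (0.941) and Efhd2 (0.94). No gene was among the 3 nearest of both S100a4 and S100a6, or of both S100a1 and S100a13.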

How the data were processed

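The deposited matrices hold unnormalized UMI counts, as their whole values show and the file headers allow, for 27998 genes and 3641 barcodes. Per the labels' protocols, the 10x Genomics Chromium was used on sorted cells, with sequencing on a NextSeq 500. Cell Ranger, Seurat and mm10 are named in the submitters' processing notes, with no version. Total UMIs were 8338220 and 3234772 in the sinusoidal libraries labelled knockout and control, and 11065352 and 5703108 in the type H libraries labelled knockout and control.

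The cell filter, a minimum of 200 genes and less than 10% mitochondrial UMIs, kept 3567 cells and left out 74 barcodes. Scrublet marked 6, 5, 3 and 1 cells in the library order above, and none of these was removed; its shares for type H were 0.162% and 0.124%. Cells were clustered over all libraries without S100 genes (Python 3.11.15, scanpy 1.11.5, 10000 UMIs per cell, 2000 variable genes, 30 principal components, 15 nearest neighbours, leidenalg 0.10.2 at resolution 1). Names came from 14 marker lists. A marker was detected at 10% of cells and raised at 1.5-fold the mean of other clusters with 20 CPM added, and a name needed 3 raised markers, 0.5 of the list detected, and no other class ahead by raised or leading genes. The best list of the 1 unnamed cluster, led by Pf4 and Cenpf, was the megakaryocyte list.

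UMIs were summed per library and class and scaled to CPM. Sums have exact Poisson, shares Clopper-Pearson and ratios exact conditional binomial 95% intervals. They cover counting error only, as does the upper limit of 3 counts that a count of 0 allows. With 1 library per group no test was possible. Log2 ratios had 0.5 UMIs added to each sum, and a gene was counted as lower or higher at 1.5-fold with at least 20 UMIs over both libraries. In data simulated for the granulocyte precursor-like comparison over 8894 genes, 89% of genes made higher and 88.5% of genes made lower by a fold of 2 were recovered, and 10.9% of unchanged genes passed. The simulation drew Poisson counts for the summed UMIs, without spread between cells, stages or libraries. These rates therefore cover counting error only and do not describe the real comparison.

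Gene positions are from GENCODE M21 (GRCm38), and promoter windows from RefSeq (GRCm38.p6). The members, lists and motifs were chosen with earlier results of these data known. The S100 genes named are all 8 members. Partner and granule genes are named as examples of their lists, and the genes most like a member are its 3 nearest. Sinusoidal granulocyte precursor-like and monocyte-like cells, which differed between libraries in their clusters, are given by cluster as well. Type H progenitor-like cells also differed, and only some of their cluster values are given. The splits by 5 stage ranges, by a late share of 0.98, by cluster and the subtraction of the erythroid-like level were added after the data were seen. Barcodes in empty droplets are not analysed here.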

Additional observations from a re-analysis of the deposited data

Results flagged for a closer look

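Over all cells, several members differed in opposite directions in the 2 gates, and the difference between gates was not tested. The log2 ratio of the library labelled knockout over the library labelled control was -0.84 for S100a8 in the sinusoidal gate and 0.21 in the type H gate, and for S100a9 it was -0.90 and 0.42. For S100a6 it was -1.28 and 0.27, and for S100a10 0.37 and -0.12. The S100a8 and S100a9 values of the type H gate rest on 7 granulocyte precursor-like cells labelled knockout and 2 labelled control.

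The barcodes that the cell filter left out also held S100a8 and S100a9. In the sinusoidal library labelled knockout they had 293 CPM of S100a8 and 209 CPM of S100a9. In the sinusoidal control library they had 1073 CPM and 309 CPM. The erythroid-like cells of the same libraries, at 146 and 809 CPM of S100a8 (115 and 527 CPM without the highest cell of each), differ in the same order.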

How the results depend on the processing

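The S100a8 log2 ratio in sinusoidal granulocyte precursor-like cells (library labelled knockout over library labelled control, -1.03 as reported) stayed below 0 under each change of filter, clustering and scaling: -0.84 with no cell filter (177 cells labelled knockout and 72 labelled control), -0.94 with a strict one (48 and 26), -1.0 with S100 genes in the clustering, -0.92 at Leiden resolution 2, -1.07 without cells marked by Scrublet and -1.0 with totals that leave out the 50 highest genes. S100a9 (-1.10 as reported) gave -0.91, -0.99, -1.06, -0.98, -1.16 and -1.07 in the same order. The filters changed the clusters, so these values compare other cells than the 257 and 90 of the main class.

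The split by late share moved both genes most, since it changes which cells are compared. For S100a8 it gave -0.71 under 0.1, 0.00045 from 0.1 to 0.5 and -0.84 from 0.5 on, and in the finer ranges -1.05 under 0.01, 0.15 from 0.01 to 0.1, -0.42 from 0.5 to 0.8, -0.61 at 0.8 or over and -0.16 at 0.98 or over. For S100a9 it gave -0.41, 0.40 and -0.92, and in the finer ranges -1.08 under 0.01, 0.89 from 0.01 to 0.1, then -0.44, -0.61 and -0.083. The Elane-led cluster alone gave -0.55 for S100a8 and -0.12 for S100a9, and the Ngp-led cluster alone -0.92 and -0.98. S100a6 in monocyte-like cells, -1.37 as reported, gave 0.087 in the Fn1-led cluster alone. S100a8 in monocyte-like cells, -1.02 as reported, gave 1.94 when the erythroid-like level without its highest cell was taken off.

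Counts of members past the threshold moved by over 1.5 times in 3 of 36 alternatives. The 1 gene higher in plasma cell-like cells became 0 with a minimum of 100 UMIs and 2 with a minimum of 1 UMI, and the 4 genes lower over all sinusoidal cells became 2 at a 2-fold threshold. The 4 genes lower in monocyte-like cells became 3 at 2-fold, without S100a9, which is within 1.5 times. No share over all genes is given at these settings, so these counts are not read as a result about the members. Of 403 alternative log2 ratios of single members, 293 lay within the counting interval of the reported value, 104 outside it and 6 on the other side of 0. Of 208 alternative levels 177 lay within the interval of the reported level, as did 81 of 256 shares of cells within theirs. Leaving out the 50 highest genes moved the scale by at most 0.12 on the log2 scale, in plasma cell-like cells. No paired analysis was possible because each group is 1 library and its labels carry no replicate number.

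The limits are those of 1 library per group: intervals leave out the spread between cells, mice and libraries, and median depth per cell was 15428 UMIs in the sinusoidal library labelled knockout and 6142 in its control library. Classes of 10 to 30 cells give wide intervals. Empty droplets are not analysed here, so the part of free RNA in S100a8 and S100a9 outside granulocyte precursor-like cells was not tested. Which mice the libraries labelled knockout came from rests on labels alone. The Id3 levels go against these labels, but no source used here says whether the counted transcript ends lie in the deleted parts.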
